A study of Homo sapiens with 16 samples.

Results

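G401 cells come from a kidney rhabdoid tumor and carry mutant SMARCB1. The experiment described here is the first day of a BRD9 deletion time course in these cells, in which BRD9 KO cells (CRISPR-Cas9 knockout of BRD9) were compared with LacZ cells (the control, named for a bacterial gene that human cells lack). The day 1 libraries were chosen by their labels: 2 BRD9 KO and 2 LacZ libraries, 4 of the 16 in the series, each day of which (1, 2, 3 and 5) has 2 BRD9 KO and 2 LacZ libraries of its own. All groups share the SMARCB1-mutant background and were grown in DMEM with FBS. For knockouts the methods give lines that stably carry Cas9, kept in blasticidin, which received guide RNAs by lentivirus and then a puromycin selection. The study's methods describe the 2 libraries of a group as biological replicates, without saying whether they came from separate infections. The series has no group with a cut at another human gene, so the effect of Cas9 cutting itself was not tested. The event from which the days are counted is not given in the sources used here. The study states that no G401 clone lacking BRD9 could be isolated, and in these libraries cells that kept an intact BRD9 cannot be told apart from residual RNA of edited cells.

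BRD9 is a bromodomain protein, a reader of acetylated lysine, and a defining subunit of the non-canonical BAF complex (ncBAF, also GBAF), one of the SWI/SNF complexes that move nucleosomes with energy from ATP. It sits there with GLTSCR1, the ATPase SMARCA4, the core subunit SMARCC1 and actin itself, whereas SMARCB1 and ARID1A belong to the other SWI/SNF complexes. Loss of SMARCB1 is the defining lesion of rhabdoid tumors. The comparison asks which RNAs moved first once BRD9 was targeted, and which of those moves were seen on day 1 and not later.

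The day 1 libraries held 9185850 and 15024551 estimated counts in BRD9 KO and 13220790 and 15430122 in LacZ. The first BRD9 KO library was thus the smallest of the 16, the others of later days ranging from 10922124 to 16560717. Levels are given as CPM, counts scaled to the library's size, always as 4 values, first BRD9 KO (replicates 1 and 2) and then LacZ (replicates 1 and 2), and fold changes as log2 of BRD9 KO over LacZ ± SE (n = 2 against 2). A gene was called at a Benjamini-Hochberg adjusted p under 0.05 in edgeR's quasi-likelihood test over 15027 genes. The cells carried the RNAs of their label: KRT8 lay at 2806, 2921, 2819 and 2849.9 TPM (a level that is also scaled for length) and VIM at 1366, 1429, 1425 and 1453 TPM, while SMARCB1 had 0, 0, 0 and 2 counts and was too low to test. CDH5 and PTPRC, which mark endothelial and blood cells, had no count in any of the 4 libraries. The summed TPM of the blood markers was 20.4, 18.1, 20.6 and 24.6, of which 5 of 11 had no count, that of the neural markers 3.05, 1.73, 2.72 and 3.22, and that of the endothelial markers 0.55, 0.64, 0.98 and 0.76. The epithelial markers, mostly KRT8 and KRT18, summed to 5389.8, 5563, 5342 and 5402 TPM, with EPCAM at 1, 1, 4 and 4 counts, and the mesenchymal or rhabdoid markers to 2918, 3004, 3058 and 3094 TPM.

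BRD9 itself (ENSG00000028310.13; GRCh37 chromosome 5, 850406 to 892916, minus strand) was the gene with the strongest evidence. Its level was 16.7, 17.1, 47.2 and 49.4 CPM. Both BRD9 KO libraries were far below both LacZ libraries and close to each other. The log2 fold change was -1.51 ± 0.08 (adjusted p = 2.73e-09), which left 35.0% of the LacZ level; in bulk RNA, fewer cells with the transcript and less of it per cell cannot be told apart. On days 2, 3 and 5 the fold change was -1.34, -1.31 and -1.36, and the day 1 effect was not told apart from their mean (difference -0.18 ± 0.09, adjusted p = 0.361).

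TRIP13, an ATPase that remodels HORMA-domain proteins in the spindle checkpoint and in meiosis, starts next to BRD9 on the opposite strand (chromosome 5, 892999 to 919472, plus strand). The annotated gene bodies are 82 bases apart, and the stretch between them, 81.7% G and C, is shown because it separates the starts of these neighbours, both of which were called. It covers chr5:892917-892998 of GRCh37, on the plus strand:

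BRD9 to TRIP13: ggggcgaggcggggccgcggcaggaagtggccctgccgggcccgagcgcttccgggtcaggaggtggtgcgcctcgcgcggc

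TRIP13 was at 48.8, 48.8, 63.1 and 64.7 CPM, so it was lower in both BRD9 KO libraries. Its log2 fold change of -0.39 ± 0.05 (adjusted p = 0.000819) was followed by -0.14, -0.19 and 0.00 on the later days, and the day 1 effect was more negative than the mean of those days (difference -0.28 ± 0.06, adjusted p = 0.00575). ZDHHC11, a palmitoyltransferase gene that overlaps the far end of BRD9 on the same strand, was at 2.98, 3.85, 5.27 and 5.38 CPM (log2 fold change -0.61 ± 0.17, adjusted p = 0.139). Of the 18 tested genes in a list of 22 around BRD9 on 5p15.33, TRIP13 was the 1 called, lower. The list's median was -0.05, and 0.266% of all genes were called lower.

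The partners of BRD9 showed no call beyond actin. GLTSCR1, the partner that defines ncBAF, was at 20.8, 20.4, 20.9 and 20.8 CPM, a log2 fold change of -0.02 ± 0.10. SMARCA4 stood at 699, 675, 727 and 707 CPM (-0.06 ± 0.02, adjusted p = 0.211), SMARCC1 at 258, 238, 243 and 237 CPM (0.04 ± 0.04) and ARID1A at 259.8, 252, 271 and 267 CPM (-0.07 ± 0.03, adjusted p = 0.409). Among the 12 tested ncBAF genes 2 were called, both lower, against 0.266% of all genes called lower. They were BRD9 and ACTB, the latter described below with the cytoskeleton. None of 13 tested BAF and PBAF subunits passed the test, the most abundant of them per length being SMARCE1 at 0.06 ± 0.04, nor did any of 32 bromodomain genes outside SWI/SNF, where TRIM28 was the most abundant at -0.07 ± 0.03.

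Over all genes, 81 of 15027 were called on day 1, 0.539%, of which 41 were higher (0.273%) and 40 lower (0.266%) in BRD9 KO. At an unadjusted p under 0.05 there were 1530. In all 81 the BRD9 KO and LacZ libraries did not overlap, a trait shared by 41.1% of all tested genes. Most of the changes were small: the median size of the log2 fold change was 0.14 among called genes, 56 of the 81 lay under 0.2 and 6 reached 1, namely BRD9 and 5 RNAs with few counts given at the end. The called genes were also abundant, with a median of 305 CPM in LacZ against 23.1 CPM for all tested genes, so that a difference of a few percent could pass. The 2 libraries of a day 1 group spread by 1.07 (BRD9 KO) and 1.10 (LacZ) times the counting noise, and the test used 1 estimate of the spread shared by all 16 libraries.

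**Figure D1:**
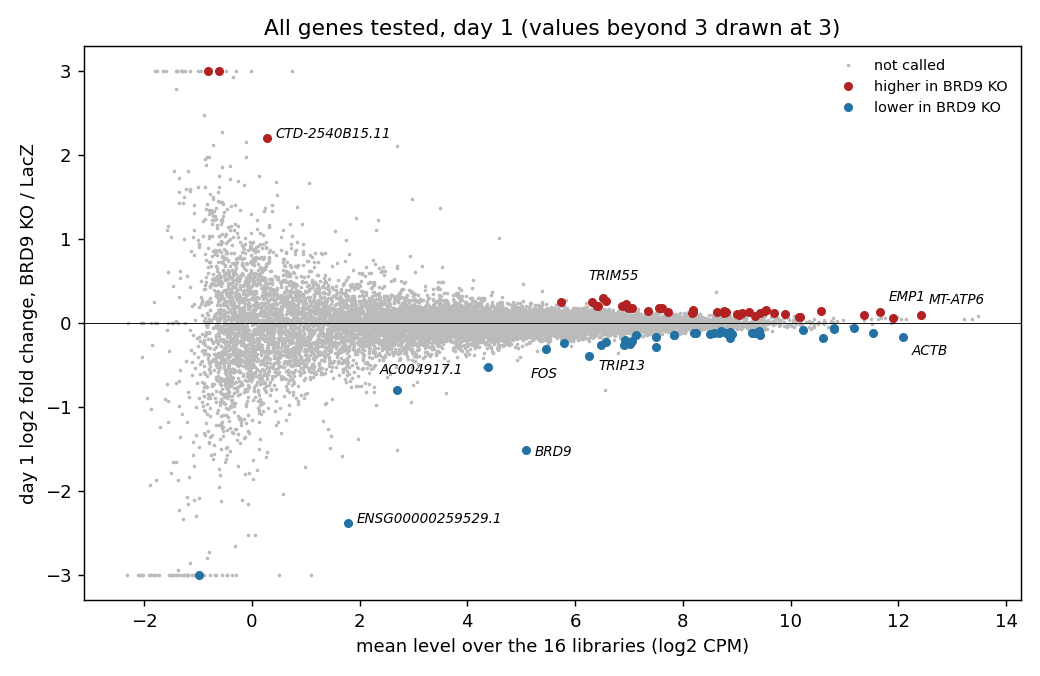
Day 1 log2 fold change (vertical axis, BRD9 KO over LacZ, values beyond 3 drawn at 3) against the mean level over the 16 libraries (horizontal axis, log2 CPM) for the 15027 genes tested. Red points are the 41 genes called higher and blue points the 40 called lower; most of them lie close to 0 at the abundant end, with BRD9 well below at -1.51.

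Single libraries carried much of this count. It was 20 without BRD9 KO replicate 1, 33 without BRD9 KO replicate 2, 14 without LacZ replicate 1 and 17 without LacZ replicate 2. The 10 genes called in each of these 4 fits, in the direction given here, were BRD9, TRIP13, ACTB, ACTG1, FLNA, PDLIM7 and HSPB1, all lower, and EMP1, PLAU and ITGAV, all higher, whereas 50 of the 81 were called in none of them.

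Transcript length also moved with the direction. The median effective length was 3144 bases for the genes called higher and 1656 for those called lower, beside 2048 for all tested genes. Across 15012 nuclear genes the day 1 fold change had a Spearman correlation of 0.12 with length, a description over genes of the same 4 libraries, and the median fold change went from -0.02 among the shortest 3003 genes to 0.02 among the longest 3003. With a length offset in the fit 86 genes were called, 63 of them among the 81. The part of RNA quality or library making in this trend was not tested.

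Several genes of the actin cytoskeleton fell. Actin filaments carry the tension of a cell, with alpha-actinins, filamins and tropomyosins as the proteins that bundle, cross-link and cover them. In the list of actin cytoskeleton and muscle genes 8 of 43 tested members were called, all lower, against 0.266% of all genes called lower. This list was chosen with earlier results of these data known. Among genes above 100 CPM in LacZ, 63 of 2268 were called in either direction, so the share over all genes is a low baseline for abundant genes. Of the 43 fold changes 31 were negative, with a median of -0.07 beside 0.00 for all genes. With the length offset 9 were lower at a median of -0.06, and without single libraries 4 or 5 were lower at medians of -0.09 to -0.06.

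ACTB, beta-actin, was the most abundant called gene among those lower in BRD9 KO. It belongs to the ncBAF list and is not a member of the actin list. It was at 3428, 3456, 3842 and 3884 CPM, with both BRD9 KO libraries below both LacZ libraries and a small gap within each pair. Its log2 fold change was -0.17 ± 0.01 (adjusted p = 1.09e-07). ACTG1, gamma-actin, the other cytoplasmic actin, was at 2311, 2367, 2553 and 2525 CPM. The groups did not overlap in ACTB or ACTG1, nor in 41.1% of all tested genes. The fold change of ACTG1 was -0.12 ± 0.01 (adjusted p = 5.16e-05). The 2 mRNAs have similar coding sequences, so some reads could be split between them by the authors' counting. Both were lower.

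FLNA, filamin A, which cross-links actin into networks, was at 1374, 1371, 1558 and 1548 CPM. Its libraries separated by group with hardly any spread inside a group, and the fold change was -0.18 ± 0.01 (adjusted p = 1.66e-06). PDLIM7, a PDZ and LIM protein of actin fibers, was at 153, 166, 195 and 196 CPM, which gave the largest drop of the list's called members, -0.28 ± 0.04 (adjusted p = 0.00101). TAGLN, transgelin, a smooth muscle protein that binds actin, was at 345, 341, 384 and 392 CPM (-0.18 ± 0.02, adjusted p = 0.00156). The mean levels of FLNA, PDLIM7 and TAGLN fell by 11.6%, 18.2% and 11.6%. The groups did not overlap in any of the 3, nor in 41.1% of all tested genes.

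The alpha-actinins ACTN1 (520.1, 528, 573 and 564 CPM) and ACTN4 (579, 578, 625 and 625 CPM), which bundle filaments at adhesions, had fold changes of -0.12 ± 0.02 and -0.11 ± 0.02. TPM4, a tropomyosin, was at 539, 542, 579.6 and 574 CPM (-0.09 ± 0.02), and CNN2, calponin 2, at 359, 351, 387 and 380.0 CPM (-0.11 ± 0.02). In all 4 genes each BRD9 KO library was below each LacZ library, and the groups did not overlap in 41.1% of all tested genes. The adjusted p-values of the 4 were 0.00319, 0.00773, 0.0203 and 0.0336. VIM, vimentin, a member of the list that forms intermediate filaments, was not called (-0.04 ± 0.02, adjusted p = 0.598).

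Other cytoskeletal genes lay outside this list. LASP1, an actin-binding protein of adhesions, was at 387, 379, 419 and 412 CPM (-0.12 ± 0.02, adjusted p = 0.0234). The tubulins TUBB, TUBB6 and TUBA1B, the building blocks of microtubules, had fold changes of -0.06, -0.10 and -0.08 with adjusted p of 0.0147, 0.0345 and 0.0449. In the opposite direction stood MICAL2, an enzyme that oxidizes actin, at 449, 427, 399.8 and 402 CPM (0.12 ± 0.02), RAI14, an actin-binding ankyrin protein, at 129.6, 126, 111 and 115 CPM (0.18 ± 0.04), and CYFIP2, a part of the WAVE complex that starts actin branches, at 51.1, 54.8, 43.4 and 45.8 CPM (0.25 ± 0.05). IQGAP1, a scaffold between actin and small GTPases, and DST, dystonin, which links filament systems, were higher by 0.08 ± 0.02 and 0.10 ± 0.02. These 5 genes, and LASP1 and the tubulins before them, were picked here after their values were seen and were in no list of the cytoskeleton. Over the alternatives given at the end RAI14 was called in 3 of 12 and CYFIP2 in 3 of the 11 that gave an adjusted p. Of the other higher genes MICAL2 was called in 7 of 12, DST in 6 and IQGAP1 in 5. Of the lower ones LASP1 and TUBB were called in 6 of 12, and TUBB6 and TUBA1B in 5.

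**Figure D2:**
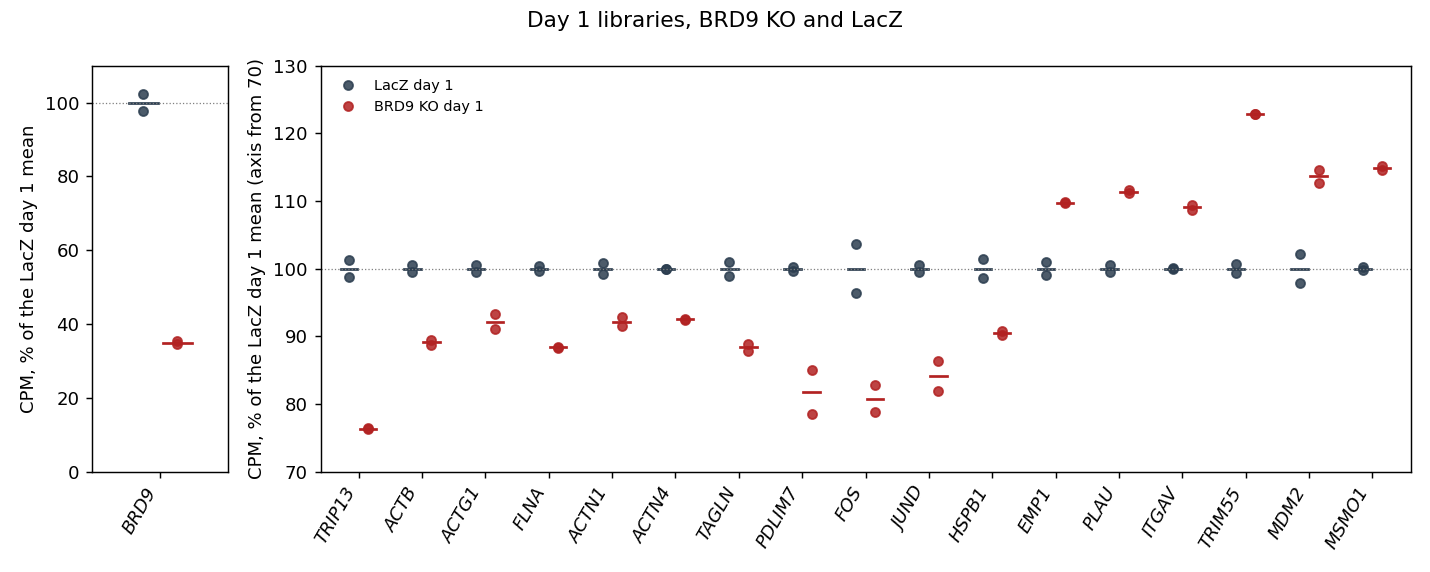
Level of 18 called genes in each day 1 library as a percentage of the mean of the 2 LacZ libraries (vertical axis, from CPM; the right panel starts at 70). Each point is a library and each bar the mean of 2; the red BRD9 KO points of BRD9 sit near 35%, those of the actin genes between 78.6% and 93.2%, and those of EMP1, PLAU, ITGAV, TRIM55, MDM2 and MSMO1 at 109% or more.

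Promoters were available for part of these genes: 56 of the 81 called genes matched a start in the RefSeq table (GRCh38.p14). In the 250 bases before the start, a CArG box, the known binding site of serum response factor at many actin genes, was found before 5 of the 27 lower genes that matched (18.5%), before 0 of 29 higher genes and before 130 of 9360 tested genes (1.39%). It was also found before 7 of 38 matched genes of the actin list, among them ACTG2 and MYLK, which were not called. This motif was chosen after the values were seen. The 5 matches are shown with 25 bases on each side, on the gene's own strand, with the matched 10 bases in capitals, so that their likeness can be read directly:

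ACTG1: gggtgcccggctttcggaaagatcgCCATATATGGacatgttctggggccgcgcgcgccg
FLNA: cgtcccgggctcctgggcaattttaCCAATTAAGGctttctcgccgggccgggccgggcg
CNN2: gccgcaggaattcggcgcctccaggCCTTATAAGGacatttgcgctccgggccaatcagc
TPM4: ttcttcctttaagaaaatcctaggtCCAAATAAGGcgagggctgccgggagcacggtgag
ACTN1: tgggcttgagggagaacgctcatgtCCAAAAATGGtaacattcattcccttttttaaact

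The match begins 94 bases before the start of ACTG1 (chr17:81512859-81512918, minus strand) and of FLNA (chrX:154374694-154374753, minus strand), and 89 before that of CNN2 (chr19:1026494-1026553, plus strand). It begins 173 bases before the start of TPM4 (chr19:16067340-16067399, plus strand) and 171 before that of ACTN1 (chr14:68977703-68977762, minus strand). A match is a description of letters and was not tied to binding by any data here. The other motifs were counted in the same way: CCAAT before 12 of 29 higher and 12 of 27 lower genes (41.5% of tested genes), CACGTG (E-box) before 5 and 6 (11.5%), CCGGAAG (ETS core) before 1 and 3 (19.3%), TGACTCA (AP-1) before 4 and 0 (3.95%) and TGACGTCA (CRE) before 0 and 1 (3.53%), each read on both strands. The palindrome of NRF1 was found before none of the called genes and before 2.40% of tested genes.

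FOS and JUND, which encode subunits of AP-1, fell. FOS is one of the immediate-early genes, which answer signals within minutes. FOS, an AP-1 subunit, was at 75.2, 71.5, 94.1 and 87.5 CPM. Both BRD9 KO libraries were below both LacZ libraries, and the groups did not overlap in 41.1% of all tested genes. The log2 fold change of FOS was -0.31 ± 0.05 (adjusted p = 0.00539). JUND, its partner in AP-1, was at 142, 150.0, 173 and 175 CPM (-0.24 ± 0.05, adjusted p = 0.0355). In the list of immediate-early, AP-1 and YAP response genes these were the 2 called of 36, against 0.266% of all genes called lower, with 26 fold changes negative and a median of -0.06. Without single day 1 libraries 0 or 1 of the list was called, and 1 under the replicate block. The same list stood at a median of 0.21 on day 3 and 0.18 on day 5. JUND itself stood at -0.09, -0.10 and -0.25 on days 2, 3 and 5, and was called lower again on day 5. ID3, an inhibitor of basic helix-loop-helix factors in the developmental signalling list, was the most abundant member there per length and was not called (-0.04 ± 0.02).

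Single genes of the stress responses were called lower, against 0.266% of all genes called lower. ATF4, the transcription factor of the integrated stress response, was at 131, 131, 147 and 147 CPM (-0.16 ± 0.03, adjusted p = 0.0336). It was the 1 called of 45 genes of that list, whose median was -0.08 with 34 fold changes negative. None of that list was called with the day 1 libraries alone or with limma on the TPM scale. Without single day 1 libraries its median lay between -0.08 and -0.04. HSPB1, a small heat shock protein that also binds actin filaments, was at 769, 774, 864 and 841 CPM (-0.14 ± 0.02, adjusted p = 0.00109), the 1 called of 38 chaperone and unfolded protein response genes with a median of -0.04. NUPR1, a stress-induced chromatin protein, was not called on day 1 (-0.10 ± 0.04, adjusted p = 0.409) and stood at -1.40 on day 5.

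EMP1, PLAU and ITGAV were the 3 genes called higher in each of the 4 fits that left out a day 1 library. EMP1, a membrane protein of epithelial cells, was at 3439, 3442, 3106 and 3164 CPM, with the BRD9 KO mean 9.73% above LacZ and its libraries nearly equal to each other. Its log2 fold change was 0.13 ± 0.01 (adjusted p = 1.66e-06). PLAU, urokinase, a protease that activates plasminogen, was at 834, 837, 746 and 754 CPM (0.16 ± 0.02, adjusted p = 5.16e-05). ITGAV, the integrin alpha V chain, a receptor for vitronectin and fibronectin, was at 847, 841, 773 and 775 CPM (0.12 ± 0.02, adjusted p = 0.000785). In each of the 3 genes the groups did not overlap, nor did they in 41.1% of all tested genes.

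ITGB1, the integrin beta 1 chain that pairs with alpha V and others, rose by less, from 1078 and 1081 to 1133 and 1129 CPM (0.07 ± 0.01, adjusted p = 0.0496). Over the alternatives given at the end ITGB1 was called in 1 of 12. NID1, nidogen 1, and LAMC1, the laminin gamma 1 chain to which nidogen binds in basement membranes, were at 141, 140.3, 123 and 126 CPM and at 520.2, 506, 458 and 472 CPM. Their fold changes were 0.17 ± 0.03 and 0.14 ± 0.02. These were the 2 called of 30 tested genes of the extracellular matrix list, against 0.273% of all genes called higher. The list's median was 0.02, and COL11A1, its most abundant member per length, was not called (0.04 ± 0.01, adjusted p = 0.332). The matrix genes include long transcripts, and with the length offset 1 gene of the list was called higher and 1 lower.

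Secreted factors and membrane proteins higher in both BRD9 KO libraries included IGFBP3, which binds insulin-like growth factors (0.15 ± 0.02), ANGPT2, angiopoietin 2, a ligand of the TIE2 receptor (0.18 ± 0.03), ADAM9, a metalloprotease of the membrane (0.10 ± 0.02), SLC20A1, a phosphate transporter (0.13 ± 0.02), and TFRC, the transferrin receptor (0.12 ± 0.02). CTSB, cathepsin B, a protease of the lysosome, was higher by 0.13 ± 0.03, but was called in 2 of the 12 alternatives given at the end. ANXA1, annexin A1, which binds membrane phospholipids, was lower by -0.12 ± 0.02, as were FGFBP3, a binding protein of fibroblast growth factors (-0.14 ± 0.03), and NXPH3, a ligand of neurexins (-0.24 ± 0.04).

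The p53 list held 2 called genes, both higher, against 0.273% of all genes called higher. MDM2, the ligase that degrades p53 and is itself a p53 target, was at 191, 194, 166 and 173 CPM (0.18 ± 0.04, adjusted p = 0.0336), and RPS27L, a ribosomal protein paralog induced by p53, at 125, 129, 111 and 110.2 CPM (0.21 ± 0.04, adjusted p = 0.0203). Reads of RPS27L may be shared with RPS27. Of the 30 tested genes 23 had a positive fold change, with a median of 0.08 beside 0.00 for all genes, and the most abundant member per length, BAX, was not called (0.10 ± 0.05, adjusted p = 0.579). DRAM1, a p53-induced membrane protein of autophagy outside the list, was at 77.8, 78.2, 63.4 and 67.3 CPM (0.25 ± 0.05). Without any 1 of the 4 day 1 libraries none of the p53 list was called, and its median stayed between 0.06 and 0.08.

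Of the further called genes, IKBIP, named for its binding to IKK beta, was at 91.6, 94.7, 80.7 and 81.5 CPM (0.20 ± 0.04). AIFM3, a mitochondrial flavoprotein related to the apoptosis-inducing factor, was lower at 141, 141, 167 and 162 CPM (-0.22 ± 0.04).

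Called splicing factors were lower, and called translation factors higher. Of 54 tested splicing factors 3 were called, all lower: HNRNPD (372, 368, 395 and 396 CPM; -0.09 ± 0.02), which also binds AU-rich elements, its paralog HNRNPDL (264, 261, 283 and 288 CPM; -0.12 ± 0.03) and SRSF2, which defines exons (298, 302, 326 and 329 CPM; -0.12 ± 0.03). Their adjusted p-values were 0.0336, 0.0422 and 0.0336, the list's median was -0.03 and 0.266% of all genes were called lower. With the length offset 1 of the list was called, and none was with the day 1 libraries alone or without any single day 1 library. SFPQ, a nuclear RNA-binding protein outside the list, was lower by -0.13 ± 0.02. HNRNPA1, the most abundant splicing factor per length, was not called (-0.04 ± 0.02).

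PABPC1, the poly(A)-binding protein, was higher at 4649.7, 4643, 4448 and 4427 CPM (0.07 ± 0.01, adjusted p = 0.0142), and so was EIF3E, a subunit of the initiation factor eIF3, at 313, 329, 295 and 295 CPM (0.12 ± 0.03, adjusted p = 0.0496). They were the 2 called of 45 translation factors, whose median was 0.00, against 0.273% of all genes called higher. SMG1, a kinase of nonsense-mediated decay, was higher by 0.14 ± 0.03. None of 79 ribosomal proteins and none of 57 ribosome biogenesis genes was called, and their most abundant members per length, RPL17 and NPM1, stood at 0.02 ± 0.02 and 0.02 ± 0.02. EEF1A1, the most abundant translation factor, missed the threshold (0.05 ± 0.01, adjusted p = 0.0776).

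Few chromatin genes were called. H2AFX, the histone variant that is phosphorylated at DNA breaks, was at 111, 105, 126 and 124 CPM (-0.22 ± 0.04), and H1F0, a linker histone of resting cells, at 74.8, 76.3, 95.1 and 86.8 CPM (-0.26 ± 0.06). They were the 2 called of 51 histone chaperone and replacement histone genes (median -0.01), against 0.266% of all genes called lower. None of that list was called with the day 1 libraries alone or with limma on the TPM scale. Under the replicate block 1 was called lower, and with DESeq2 3 were. No call was made among 31 replication-dependent histones, where HIST1H2BK stood at -0.03 ± 0.05, or among 61 Polycomb, heterochromatin and DNA methylation genes. LIN28A, an RNA-binding protein of stem cells, was lower at 103, 105, 122 and 127 CPM (-0.26 ± 0.05), and RBPJ, the DNA-binding factor of Notch signalling, higher at 696, 707, 661 and 661 CPM (0.09 ± 0.02). ZNF106, a zinc finger protein that binds RNA, was higher at 2085, 2012, 1875 and 1822 CPM (0.15 ± 0.02, adjusted p = 0.00213). It was the 1 called of 415 genes with a ZNF symbol, against 0.273% of all genes called higher. That list's median was 0.02.

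Among metabolic genes the glycolytic enzymes ENO1, enolase, and GAPDH were lower by small amounts, at 1585, 1609, 1677 and 1685 CPM (-0.07 ± 0.01) and at 2055, 2092, 2159 and 2166 CPM (-0.06 ± 0.01). SLC16A3, the transporter that exports lactate, was lower at 122, 122, 141 and 139.7 CPM (-0.20 ± 0.04). These were the 3 called of 38 hypoxia and glycolysis genes, against 0.266% of all genes called lower, with a median of -0.01. None of the list was called with the day 1 libraries alone or in 3 of the 4 fits without a library, and 2 were called without BRD9 KO replicate 2. UCP2, a carrier of the mitochondrial inner membrane, was also lower (-0.14 ± 0.03).

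In sterol metabolism the 2 called of 35 genes went opposite ways, against 0.539% of all genes called in either direction. MSMO1, a demethylase on the path to cholesterol, was at 115, 116, 101 and 101 CPM (0.20 ± 0.04, adjusted p = 0.0164), whereas SREBF1, the transcription factor of lipid synthesis, was at 222, 220.2, 245 and 241 CPM (-0.14 ± 0.03, adjusted p = 0.0336). SCD, a fatty acid desaturase and the most abundant of the list per length, was not called (0.01 ± 0.01).

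All 13 mitochondrially encoded mRNAs had positive fold changes, between 0.04 and 0.10 with a median of 0.07. Of these, 2 were called, both higher, against 0.273% of all genes called higher. MT-ND5, a subunit of complex I, was at 3240.3, 3147, 2991 and 2980.4 CPM (0.10 ± 0.02, adjusted p = 0.0164), and MT-ATP6, a subunit of the ATP synthase, at 6324, 6075, 5829.6 and 5766 CPM (0.10 ± 0.02, adjusted p = 0.049). MT-ATP6 shares bases with MT-ATP8 and MT-CO3, so its reads cannot all be assigned. On days 2, 3 and 5 the median of the 13 was 0.19, -0.01 and -0.04, and all 13 were called higher on day 2. On day 1 mitochondrial genes took 6.69% and 6.60% of counts in BRD9 KO and 6.37% and 6.34% in LacZ. The number called was 8 of 13 with the length offset and 4 without BRD9 KO replicate 2, and without any 1 of the other 3 day 1 libraries none was. LRPPRC, which stabilizes mitochondrial mRNAs, and NIPSNAP1, a mitochondrial matrix protein, were higher by 0.11 ± 0.02 and 0.15 ± 0.03, while none of 72 nuclear genes of oxidative phosphorylation was called (median -0.02; COX7C at 0.05 ± 0.03).

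Of the remaining called genes, TRIM55, a muscle ring finger protein that binds titin, had 88.2, 88.2, 72.2 and 71.3 CPM (0.30 ± 0.04, adjusted p = 0.00201), the highest fold change of any called gene whose log2 CPM averaged 1 or more over the 16 libraries. CMBL, a hydrolase (0.26 ± 0.04), POC1B, a centriole protein (0.23 ± 0.04), TTC3, a ubiquitin ligase (0.15 ± 0.03), IBTK, an inhibitor of the kinase BTK (0.13 ± 0.02), and WNK1, a kinase that controls ion transport (0.13 ± 0.03), were higher in both libraries. AC004917.1 was lower, at 21.1, 20.6, 29.6 and 30.2 CPM (-0.52 ± 0.11, adjusted p = 0.0317).

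Several lists had no call on day 1. They were the 31 tested interferon and nucleic acid sensing genes (median 0.00), 20 inflammatory genes (-0.04), 48 G2/M genes (-0.01), 56 S phase genes (-0.02), 22 NRF2 and metallothionein genes (-0.02), 32 kidney and developmental transcription factors (-0.04), 51 developmental signalling genes (0.03) and 20 noncoding RNAs (0.00). The most abundant members per length included BST2 at -0.09 ± 0.03, CKS2 at -0.02 ± 0.04, TYMS at 0.00 ± 0.02, FTH1 at -0.02 ± 0.02, IER3 at -0.04 ± 0.04, HMGA1 at -0.02 ± 0.02 and SNHG5 at 0.09 ± 0.04.

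**Figure D3:**
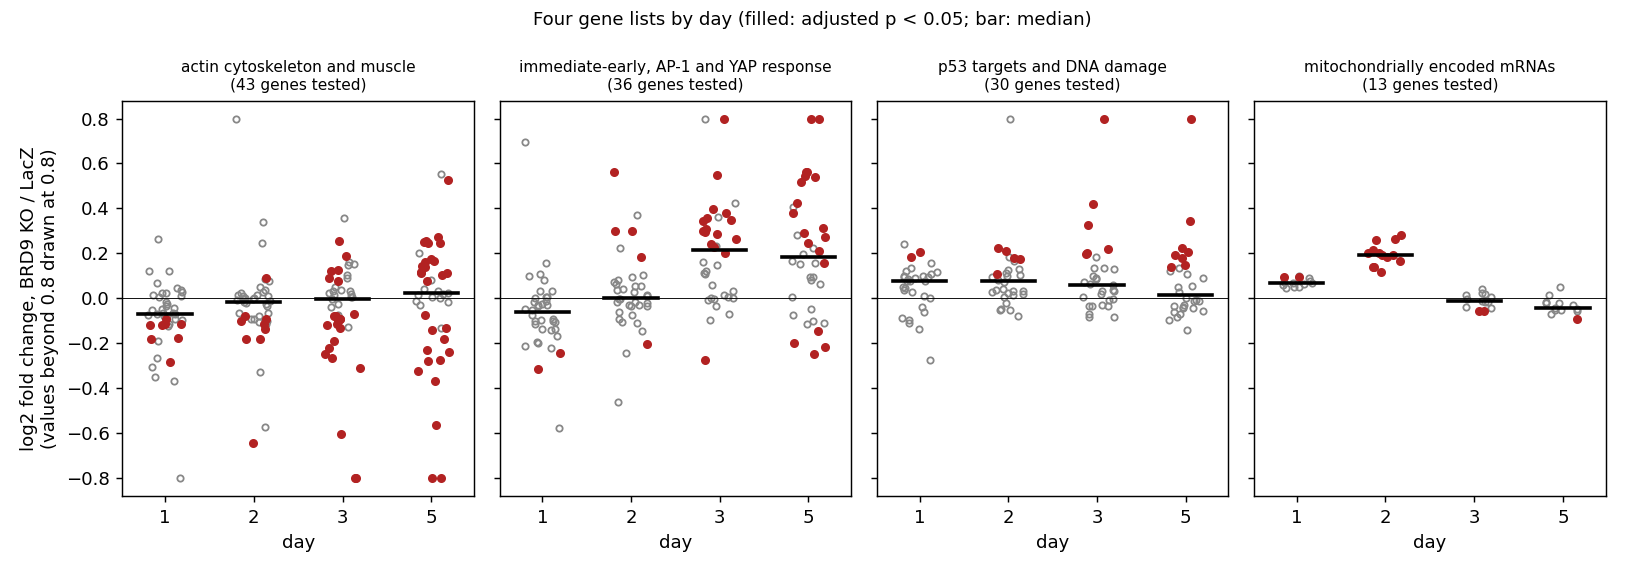
Log2 fold change (vertical axis, BRD9 KO over LacZ, values beyond 0.8 drawn at 0.8) on days 1, 2, 3 and 5 (horizontal axis) for the tested genes of 4 lists. Each circle is a gene, filled where called, and the bar is the median: the actin list has 8 filled points on day 1, all below 0, and the bar of the immediate-early list is at -0.06 on day 1 and 0.21 on day 3.

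Of the 81 first-day genes, 61 were called again on a later day and 20 were not. On later days 406 (2.7%), 1569 (10.4%) and 2250 (15%) of the tested genes were called on days 2, 3 and 5. Of the 81 called on day 1, 44 were called on day 2 (54.3% of the 81 and 10.8% of the day 2 genes), 51 on day 3 (63.0% and 3.25%) and 49 on day 5 (60.5% and 2.18%). The shared genes had the day 1 sign in all 44 cases on day 2, in 48 on day 3 and in 44 on day 5. In all, 31 were called on all 4 days. Each day has its own LacZ libraries, so no controls are shared between days. The spread of each gene was estimated over all 16 libraries, so calls on different days are not fully independent.

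Part of the first-day changes grew. Day 1 effects differed from the mean effect of days 2, 3 and 5 in 636 genes (4.23%), and 30 of these were among the 81. In 11 of the 30 the later effect was more extreme in the day 1 direction. FGFBP3 went from -0.14 to -1.03 on day 5, AIFM3 from -0.22 to -0.98, NXPH3 from -0.24 to -0.78 and LIN28A from -0.26 to -0.75. ITGAV went from 0.12 to 0.51, PLAU from 0.16 to 0.51, MICAL2 from 0.12 to 0.47 and NID1 from 0.17 to 0.41. EMP1 was highest on days 2 and 3 (0.28 and 0.29) and stood at 0.16 on day 5.

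Changes found on day 1 only were defined by 3 conditions: called on day 1, not called on days 2, 3 and 5, and a day 1 effect that differed from the mean of those days by test. This held for 12 genes, 8 higher and 4 lower. Because the day 1 libraries enter both the first and the last condition, the difference is not independent of the day 1 call. Without single day 1 libraries 1 to 4 genes met the conditions, so membership is uncertain for most.

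FOS had the clearest course among the abundant ones. Its log2 fold change was -0.31 ± 0.05 on day 1 and 0.11, 0.00 and -0.07 on days 2, 3 and 5, a difference of -0.32 ± 0.06 (adjusted p = 0.00481). The mean LacZ level of FOS was 90.8 CPM on day 1 and 30.9, 39.7 and 35.6 CPM on days 2, 3 and 5. In BRD9 KO it was 73.3 CPM and then 33.4, 39.8 and 34.0 CPM, so FOS was highest on day 1 in both groups. ATF4 went from -0.16 to 0.03, -0.09 and 0.01 (difference -0.15 ± 0.04, adjusted p = 0.0315). DRAM1 went from 0.25 to -0.04, 0.07 and -0.04 (difference 0.26 ± 0.06, adjusted p = 0.0129), and MSMO1 from 0.20 to 0.00, 0.09 and -0.10 (difference 0.20 ± 0.04, adjusted p = 0.00886). After day 1 these genes lay on both sides of 0.

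The other abundant members were EIF3E (difference 0.15 ± 0.03), WNK1 (0.12 ± 0.03), DST (0.12 ± 0.02), SLC20A1 (0.10 ± 0.02) and ADAM9 (0.08 ± 0.02), all higher on day 1 by 0.10 to 0.13 and between -0.07 and 0.06 on later days. WNK1 and DST have long transcripts, of 7090.4 and 7001 bases, and neither was among the 11 genes found on day 1 only with the length offset. On the TPM scale with limma the day 1 fold change of DST was -0.01.

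**Figure D4:**
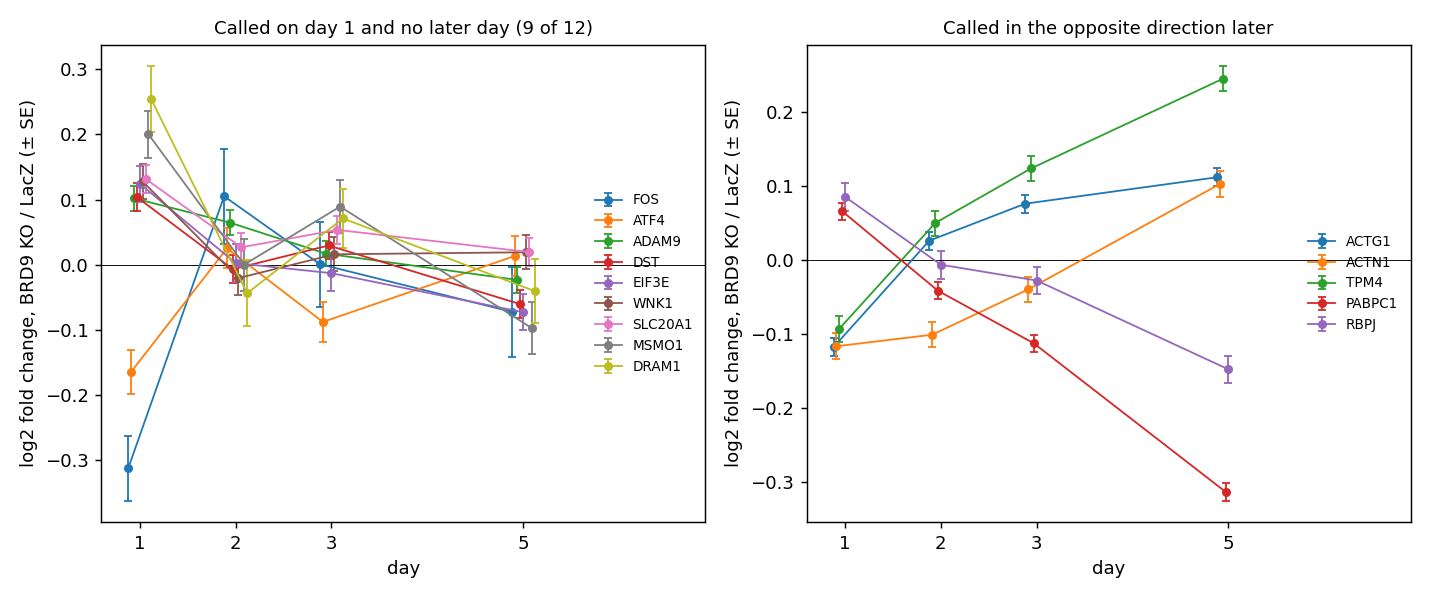
Log2 fold change ± SE (vertical axis, BRD9 KO over LacZ) on days 1, 2, 3 and 5 (horizontal axis) for 9 of the 12 genes found on day 1 only (left, the low-count RNAs left out) and for the 5 genes called in opposite directions on day 1 and later (right). On the left FOS is at -0.31 and DRAM1 at 0.25 on day 1 and both lie near 0 on day 5; on the right TPM4 rises from -0.09 to 0.25 and PABPC1 falls from 0.07 to -0.31.

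The last 3 were RNAs with few counts. ENSG00000259529.1 (chromosome 14, 24616757 to 24635661, plus strand) was at 1.33, 0.812, 4.82 and 5.84 CPM, a log2 fold change of -2.38 ± 0.31 (adjusted p = 0.000841), against -0.60, 0.28 and 0.29 later. It overlaps PSME2, RNF31 and IRF9. RP11-496I9.1, opposite to LMNTD2, was at 3.43, 5.21, 7.95 and 7.61 CPM (-0.79 ± 0.17, adjusted p = 0.0496), and CTD-2540B15.11, opposite to CEBPA, at 2.32, 1.69, 0.306 and 0.525 CPM (2.20 ± 0.49, adjusted p = 0.0496). The library kit does not mark strand, so reads of these RNAs cannot be told apart from those of the genes they overlap.

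A further 8 of the 20 genes called on no later day did not differ by test from their later effects: TFRC, LRPPRC, IQGAP1, SRSF2, NIPSNAP1, H2AFX, RPL36A-HNRNPH2 and a second POLR2J2 locus. TFRC, for example, stood at 0.12 on day 1 and at 0.05, 0.04 and 0.04 later (difference 0.08 ± 0.03, adjusted p = 0.119). These genes are not shown to be particular to day 1.

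The opposite pattern, a call on day 1 and a call of the other sign later, was found in 5 genes, 3 of them of the actin cytoskeleton. ACTG1 went from -0.12 to 0.03, 0.08 and 0.11, with a day 5 adjusted p of 2.29e-06. TPM4 went from -0.09 to 0.05, 0.12 and 0.25, and ACTN1 from -0.12 and -0.10 on days 1 and 2 to -0.04 and 0.10. PABPC1 moved from 0.07 to -0.04, -0.11 and -0.31 and RBPJ from 0.09 to -0.01, -0.03 and -0.15. The differences between day 1 and the later mean were -0.19 ± 0.01 for ACTG1, -0.23 ± 0.02 for TPM4, -0.10 ± 0.02 for ACTN1, 0.22 ± 0.01 for PABPC1 and 0.15 ± 0.02 for RBPJ.

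The actin list thus split over time. FLNA stayed low (-0.09, -0.27 and -0.27 on days 2, 3 and 5), as did ACTN4 (-0.18, -0.31 and -0.28). TAGLN and PDLIM7 stood near 0 on day 2 (0.01 and -0.02) and at -0.23 and -0.24 on day 5. ACTB, outside the list, also stayed low (-0.07, -0.12 and -0.14). On day 5 the list had 16 genes called higher and 13 lower, with a median of 0.02, whereas on day 1 it had 0 higher and 8 lower. CNN2 was called on days 1 and 3 (-0.08 on day 3) and stood at -0.02 on day 5.

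A set of 3 RNAs among the 81 were at or near 0 in 1 group. RPL36A-HNRNPH2, a readthrough of 2 neighbouring genes, had 27 and 75 counts in BRD9 KO and 0 in both LacZ libraries, at least 40.2-fold higher against a floor of 3 counts over the group. The second POLR2J2 locus (ENSG00000228049.5) had 43 and 43 counts against 0, at least 33.9-fold higher. RP11-498P14.3 had 0 and 2 counts against 18 and 22, a ratio of 0.0592 with a 95% interval (exact, counting error only) of 0.00693 to 0.228. RPL36A-HNRNPH2 overlaps RPL36A and HNRNPH2, POLR2J2 has near-identical copies and RP11-498P14.3 overlaps ANKRD18CP, so the authors' counting could split reads between them and the values are uncertain.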

How the data were processed

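RNA was measured by RNA-seq in G401 cells. Per the labels and the study's methods, total RNA was extracted with Trizol, libraries were made with the NEBNext Ultra RNA kit, the authors aligned reads with STAR to hg19 (ENCODE options) and quantified genes with RSEM, with DESeq2 for their tests. Versions are not given in the sources used here. The deposited tables hold, for 57820 genes per library, the expected count (RSEM's estimated number of reads, 35.7% of the values above 0 not whole) and TPM, which the authors' RSEM run scaled by effective length and library size.

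Expected counts were rounded to whole numbers. Genes were kept by filterByExpr (minimum count 10, minimum total 15), which left 15027, and were scaled by TMM. A mean per group over all 16 libraries was fitted with edgeR 4.0.16 in R 4.3.3 (glmQLFit and glmQLFTest), with 8 residual degrees of freedom and a common biological coefficient of variation of 0.023. The effect of BRD9 KO against LacZ was tested on each day, and so was the day 1 effect minus the mean of days 2, 3 and 5. All 16 libraries share 1 estimate of the spread. SEs were taken as the fold change divided by the square root of F. Groups came from sample titles. The p-values measure only the spread between libraries of a group.

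Named were BRD9, SMARCA4, SMARCC1, GLTSCR1 and ARID1A, the called genes with the 15 highest and 15 lowest fold changes (log2 CPM of 1 or more on average, groups that do not overlap), the 15 smallest p, genes found on day 1 only, genes called later with the opposite sign, and in each of 36 lists the called members and the most abundant member per length (TPM), with the most abundant called gene in each direction. This gave 60 called and 30 other genes; other called genes and ZDHHC11 were named after their values were seen, and 2 called genes are not reported here. The members and lists were chosen with earlier results of these data known. Coordinates are GRCh37 (GENCODE 44), promoters RefSeq on GRCh38.p14.

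Alternatives were DESeq2's size factors, no filter, a filter of 1 CPM in 2 libraries, DESeq2 1.42.0, limma 3.58.1 on log2(TPM + 1), only the 4 day 1 libraries, a lowess length offset (span 0.3), the replicate number as a block, an added fold threshold, and each day 1 library left out. The pipeline was tested on simulated data. Intervals and floors cover counting error only.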

Additional observations from a re-analysis of the deposited data

Results flagged for a closer look

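The day 1 effect differed from the mean effect of days 2, 3 and 5 in 636 of 15027 genes by edgeR's quasi-likelihood test of the difference, 383 with a positive and 253 with a negative difference, and 606 of them were not called on day 1. The 38 named genes among them are listed here by that difference (log2, day 1 minus later mean).

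Of the genes found on day 1 only, the difference was -0.32 for FOS, -0.15 for ATF4, 0.26 for DRAM1, 0.20 for MSMO1, 0.15 for EIF3E, 0.12 for WNK1, 0.12 for DST, 0.10 for SLC20A1 and 0.082 for ADAM9. For the low-count RNAs it was -2.37 for ENSG00000259529.1, -1.04 for RP11-496I9.1 and 2.57 for CTD-2540B15.11. Of the genes that were called with the other sign later, it was -0.19 for ACTG1, -0.23 for TPM4, -0.10 for ACTN1, 0.22 for PABPC1 and 0.15 for RBPJ.

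For genes whose change grew in the same direction it was -0.19 for PLAU, -0.21 for ITGAV, -0.22 for NID1, -0.11 for EMP1, 0.14 for ACTN4, 0.40 for LIN28A, 0.44 for NXPH3 and 0.50 for AIFM3. For TRIP13 it was -0.28 and for ACTB -0.056, both lower on day 1 than later.

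The rest were not called on day 1. KRT8, a keratin, stood at 0.02 on day 1 and 0.53 on day 5, a difference of -0.32. NUPR1, a stress-induced chromatin protein, had a difference of 0.81. SCD (0.16), COL11A1 (0.11), HNRNPA1 (0.14), EEF1A1 (0.13), FTH1 (0.11), TYMS (0.14) and RPL17 (0.086) were lower later, and HIST1H2BK (-0.23) and ID3 (-0.12) higher. Groups of 2 libraries are too small for a test of single outlying samples.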

How the results depend on the processing

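The 81 genes called on day 1 became 290 with no filter on low counts (99 higher, 191 lower; 75 shared with the 81), 45 with the 4 day 1 libraries alone (32 shared), 11 with limma on log2(TPM + 1) (all 11 shared) and 6 with an added fold threshold of 1. Leaving out a day 1 library gave 14 to 33. The count stayed within 1.5 times with DESeq2 (86, 69 shared), its size factors (78), the stricter filter (81), the length offset (86) and the replicate block (76, 61 shared). The 636 genes whose day 1 effect differed from later days became 388 with DESeq2, 174 with limma, 69 when set against day 2 alone and 345 to 436 without a day 1 library, with 600 under the replicate block and 831 by the F-test over the 4 days. The 12 genes found on day 1 only became 47 with no filter, 4 with DESeq2, 0 with limma (which had 11 day 1 genes at the adjusted and 1202 at the unadjusted threshold of 0.05) and 1 to 4 without a day 1 library. Of the 60 named genes called, 10 were called with limma, 28 with the day 1 libraries alone and 14 to 24 without a library, and 47 under the replicate block. BRD9 was called under each alternative that gave an adjusted p, at -1.54 to -1.39, and at -1.54 to -1.48 without a library. DESeq2 gave no adjusted p for 11 of the 81, BRD9 among them. Under limma RAI14 (-0.0034) and DST (-0.0065) changed sign and were not called, and the other 79 of the 81 kept their sign under all 12 alternatives; the cause was not tested. Residuals of same-numbered BRD9 KO and LacZ libraries correlated at -0.0123, -0.0483, -0.0246 and -0.0177 on days 1, 2, 3 and 5 over all genes, and at -0.0435, -0.118, 0.101 and 0.177 over 6273 abundant genes, with no shared sign, so the numbers were not taken as pairs. The median called gene had 305 CPM in LacZ against 23.1 CPM for all tested genes.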
